A study of Mus musculus with 5 samples.

Results

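Peaks of the chromatin remodelling ATPase BRG1 were compared between untreated and oxLDL-treated macrophages that lack Baf60a. The members are all peaks of the KO list and of the oxLDL KO list, except those that start before 3.1 Mb on chromosome 9. These were 111 and 4639 peaks, 4750 in all, of the 14951 peaks deposited for the series. The series holds 5 libraries: 1 input, which was not analysed here, and 4 BRG1 chromatin immunoprecipitation (ChIP-seq) libraries, 1 from each of the groups called WT, KO, oxLDL WT and oxLDL KO. All cells were macrophages grown from mouse bone marrow (BMDMs). The KO group came from Baf60a KO mice without oxLDL, and the oxLDL KO group from Baf60a KO mice with oxLDL. The WT and oxLDL WT groups carry no Baf60a deletion and are given only beside them. Not given in the sources used here are the dose and duration of oxLDL, the mice's age, sex and number, and the Cre or allele behind the knockout. With 1 library per group there was no replicate check. No p-value is given, and the intervals on shares are Wilson 95% intervals that cover counting error only.

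BRG1, encoded by Smarca4, is a motor of the SWI/SNF complexes, which slide and evict nucleosomes at promoters and enhancers. BAF60a, the product of Smarcd1, is one of their accessory subunits, through which transcription factors can contact the complex. Oxidised low-density lipoprotein (oxLDL) is taken up by macrophages through scavenger receptors, and its cholesterol is stored in droplets or exported, as in foam cells of the artery wall. Neither list had a peak at Smarcd1 or Smarca4, and a BRG1 peak list does not check whether the Baf60a gene was deleted.

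The sequences below show what some of the gene starts under an oxLDL KO peak look like. Among gene starts at the outermost end of their gene, 49 had at least 150 of the 250 bases before the start under an oxLDL KO peak. The windows of Ppp1r9b and Rhog are the 2 whose peak was also found without oxLDL, and in both the oxLDL KO summit lay outside the window. Those of Ifngr2, Wdr12 and Plekhh1 are the 3 highest by fold enrichment among oxLDL-only peaks with the summit inside the window. Sequences are from RefSeq on GRCm38.p6, the assembly of mm10, in the direction of transcription. Capitals mark GGGCGG, bound by SP and KLF factors, and CCAAT, bound by NFY, on either strand, and a run of capitals can hold overlapping matches. The positions are chr11:94990962-94991211 (plus strand) for Ppp1r9b, chr7:102250119-102250368 (minus) for Rhog, chr16:91546809-91547058 (plus) for Ifngr2, chr1:60098501-60098750 (minus) for Wdr12 and chr12:79028913-79029162 (plus) for Plekhh1.
Ppp1r9b: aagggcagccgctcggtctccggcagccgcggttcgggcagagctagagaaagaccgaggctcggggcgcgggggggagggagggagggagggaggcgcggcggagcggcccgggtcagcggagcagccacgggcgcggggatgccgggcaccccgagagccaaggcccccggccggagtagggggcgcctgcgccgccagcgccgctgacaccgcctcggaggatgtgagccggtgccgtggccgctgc
Rhog: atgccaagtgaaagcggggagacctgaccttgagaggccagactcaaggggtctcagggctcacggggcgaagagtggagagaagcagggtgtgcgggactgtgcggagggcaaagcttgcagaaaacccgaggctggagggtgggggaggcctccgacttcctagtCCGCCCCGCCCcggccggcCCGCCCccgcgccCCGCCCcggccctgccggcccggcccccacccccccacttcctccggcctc
Ifngr2: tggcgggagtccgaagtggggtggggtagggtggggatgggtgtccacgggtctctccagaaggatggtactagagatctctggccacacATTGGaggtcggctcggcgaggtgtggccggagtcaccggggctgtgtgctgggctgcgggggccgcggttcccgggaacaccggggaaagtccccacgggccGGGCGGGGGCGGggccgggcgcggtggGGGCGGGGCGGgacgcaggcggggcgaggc
Wdr12: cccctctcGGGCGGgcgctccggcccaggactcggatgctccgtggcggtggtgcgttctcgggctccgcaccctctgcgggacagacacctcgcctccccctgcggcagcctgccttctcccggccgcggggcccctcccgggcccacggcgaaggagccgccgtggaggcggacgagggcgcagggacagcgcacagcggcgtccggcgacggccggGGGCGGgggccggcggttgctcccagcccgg
Plekhh1: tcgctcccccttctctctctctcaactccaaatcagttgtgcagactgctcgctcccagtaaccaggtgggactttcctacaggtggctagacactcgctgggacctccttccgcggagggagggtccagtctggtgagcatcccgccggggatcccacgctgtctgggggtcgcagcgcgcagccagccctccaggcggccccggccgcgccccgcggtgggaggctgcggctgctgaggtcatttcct
The windows were GC-rich, from 66.8% in Plekhh1 to 79.6% in Wdr12, and held 18 to 35 CG pairs each. GGGCGG was found 4 times in Rhog, 4 times in Ifngr2 and 2 times in Wdr12. Ifngr2 also held 1 CCAAT, and neither motif was found in Ppp1r9b or Plekhh1. Over 21263 RefSeq promoter windows of protein-coding genes, which reach from 250 bases before to 50 after a start, 46.2% held GGGCGG and 38.2% held CCAAT. A match is a description of the letters, not a site of binding.

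The 2 lists differed greatly in length. Peaks kept in the untreated KO list covered 36.953 kb with a median width of 274 bp, and those of the oxLDL KO list 1719.5 kb with a median of 308 bp. The authors gave each peak a fold enrichment over local background, which serves here only to describe and rank the peaks of 1 list. Its median was 3.72 in the untreated and 3.85 in the oxLDL KO list, values that depend on the caller's limit in each. The number of fragments over the summit (pileup), recovered from the deposited values, had a median of 20 and 17. The lowest local background of a list was 3.84 fragments without and 3.42 with oxLDL. Whether it follows the number of fragments in the BRG1 library is not known, since use of the input as control is not given. Read totals are not given, so the part of depth in the list lengths was not tested. The caller's lowest −log10 p was 5.33 without and 3.96 with oxLDL, and the lowest −log10 q was 1.07 and 1.01. The caller's limits are not given. How well BRG1 was precipitated in each library is not known from the lists, and its part was not tested either.

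Peaks with a local background more than 5 times the lowest in their list are named high-background peaks. There were 20 of 111 without oxLDL (18.0%) and 54 of 4639 with it (1.16%). Since they weigh so differently in the 2 lists, values outside high background are given beside those for all peaks.

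**Figure D1:**
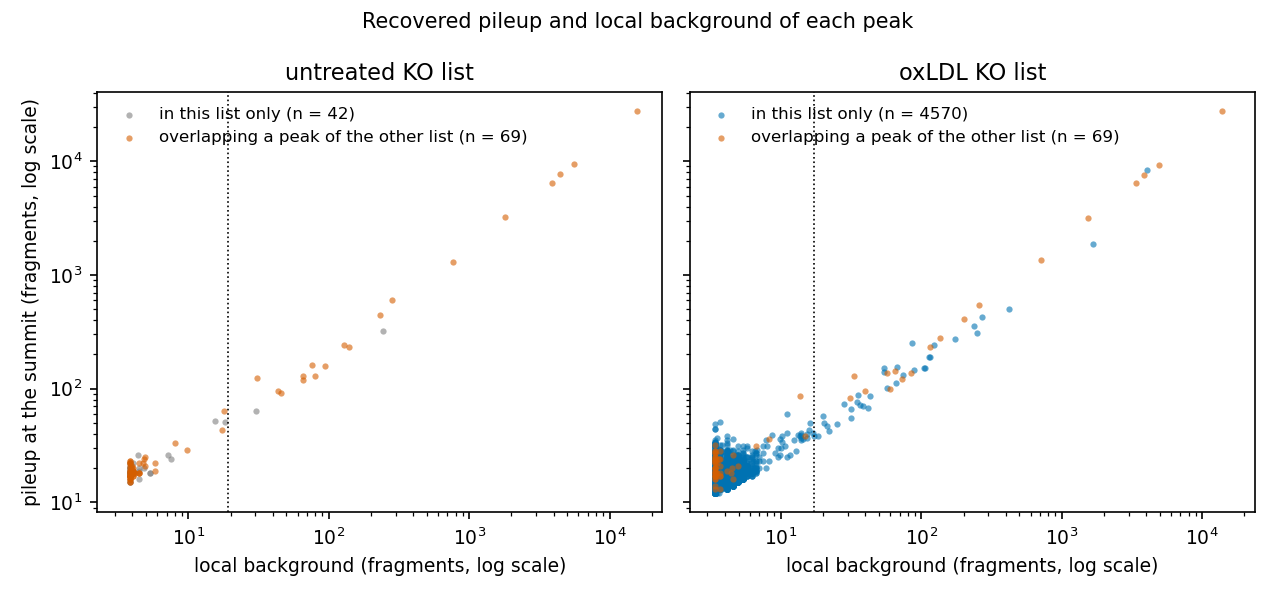
Fragment pileup at the summit against local background, both in fragments on log axes, for each peak of the untreated KO list (left) and the oxLDL KO list (right). Orange points overlap a peak of the other list, and the dotted line marks 5 times the lowest background of the list. Most peaks sit at the lowest background, and the 20 untreated peaks to the right of the line include 18 that recur.

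Untreated KO peaks mostly recurred under oxLDL. Of the 111 peaks, 69 shared 1 bp or more with an oxLDL KO peak (62.2%, interval 52.9 to 70.6), and 42 did not. Among high-background peaks 18 of 20 recurred, and outside high background 51 of 91 (56.0%, interval 45.8 to 65.8). Recurrence hardly varied with the strength of the untreated peak: outside high background it was 28 of 50 at a −log10 q below 3 (56.0%) and 23 of 41 at 3 or more (56.1%). By position it was 19 of 30 at gene ends, 18 of 34 inside genes, 6 of 9 at 1 to 20 kb from a gene and 8 of 18 beyond 20 kb, and the intervals of these 4 shares overlapped. A gene-end peak here has its summit no more than 1 kb from the start or the finish of a protein-coding gene. In WT cells, measured the same way, 152 of 208 untreated peaks recurred (73.1%, interval 66.7 to 78.6), or 141 of 186 outside high background. The difference between genotypes was not tested.

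From the side of the oxLDL KO list, peaks with an untreated counterpart were few and stood high. They made up 1.11% of its peaks outside high background. When that list was cut into 5 parts by fold enrichment, the share with an untreated counterpart was 0.455% in the lowest, then 0.199%, 1.19% and 0.967%, and 3.11% in the highest. The highest part held 25 of the 51 recurring peaks (49.0%).

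The requirement that recurring peaks share at least 1 bp limits how far apart their summits can be, so the distances are given as a description. Outside high background the median gap between the untreated and the oxLDL KO summit was 54 bp, and in 37 of 51 the gap was at most 100 bp. The oxLDL KO peak was the wider one in 43 of 51, with median widths of 268 bp without and 389 bp with oxLDL. Position class was the same in 49, and the other 2 were Ppp1r9b and Lpgat1. At Ppp1r9b, which encodes the actin-binding phosphatase scaffold spinophilin, the untreated summit lay 41 bp before the start, and the oxLDL KO peak ran over 2318 bp with its summit 2069 bp away, inside the gene. At Lpgat1, an acyltransferase gene of lipid metabolism, the summits were only 48 bp apart, on the 2 sides of the 1 kb limit.

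At least 1 recurring peak lay at an end of or inside 41 of 21887 protein-coding genes (0.187%), and at an end of 21 (0.0959%). Of those 41 genes, 16 also held peaks found only with oxLDL, where 12.9% of all protein-coding genes had such a peak and no untreated one. They included Spi1, Irf5, Nrp2, Pstpip1, Cerk, Tnip1, Akna, Arap1 and Ppp1r9b.

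Few genes of the lists used here had a recurring peak: 1 of 26 in the macrophage list (Spi1), 1 of 29 in the interferon list (Irf5), 1 of 26 in the AP-1 list (Jund) and 0 in the other 14 lists, the lipid and inflammatory lists among them. Spi1 encodes PU.1, the lineage-determining ETS factor of macrophages. Its recurring peak (chromosome 2, 91096979 to 91097285) lay inside the gene, with a fold enrichment of 3.71 in the untreated KO list, 4.67 in the oxLDL KO list and 4.58 in the oxLDL WT list. Irf5, a transcription factor of inflammatory macrophages, had 2 recurring peaks. One lay 192 bp past a start (chromosome 6, 29526777 to 29527025), with 3.79 in the untreated and 4.07 in the oxLDL KO list. The other lay 2.2 kb outside the gene (29523747 to 29523973), with 3.48 and 6.56. Both Irf5 peaks were also found in oxLDL WT, at 4.62 and 3.99, and none of the 3 peaks at Spi1 and Irf5 overlapped an untreated WT peak.

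The highest recurring peaks by untreated fold enrichment lay inside Tnip1 and Cerk. Tnip1, which encodes the ubiquitin-binding NF-kB inhibitor ABIN1, had a peak inside the gene (chromosome 11, 54933947 to 54934191) with 4.96 in the untreated KO list, 4.75 in the oxLDL KO list and 6.09 in the oxLDL WT list. Cerk, the ceramide kinase gene, also had 4.96 inside the gene (chromosome 15, 86170234 to 86170748), with 6.34 in oxLDL KO and 10.3 in oxLDL WT. Acvr1b, an activin receptor gene, had 4.44 in the untreated KO list and 4.20 in the oxLDL KO list. Further down, Tgfbr1, the type I receptor gene for TGF-beta, had 3.51 and 5.31 at its start. Ripk2, which encodes the kinase downstream of the NOD receptors, had 2.94 and 5.66 at a gene end. Ptpn22, a phosphatase gene of immune receptor signalling, had 3.72 and 4.30. Tgfbr1, Ripk2 and Ptpn22 were chosen for mention after their values had been seen.

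Both Jund and Junb, AP-1 genes, bore recurring peaks near them. At Jund the summit lay 311 bp from the finish of the gene (chromosome 8, 70700081 to 70700337), with 4.21 in the untreated and 4.03 in the oxLDL KO list. It was the 1 recurring gene-end peak, of 12 with a known strand, that lay at a finish. Near Junb, chosen after its values had been seen, the peak was 3.2 kb outside the gene (chromosome 8, 84981796 to 84982022), with 3.51 and 5.43. Its untreated and oxLDL KO summits were 647 bp apart. Junb also had 2 oxLDL-only peaks at its ends.

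Of the other recurring peaks among the 30 highest, some are given here with the role of the gene. Nrp2, encoding the coreceptor neuropilin-2, had 3.99 in the untreated list, 6.34 in oxLDL KO and 10.9 in oxLDL WT inside the gene. Akna, an AT-hook protein gene, rested on 19 fragments in the untreated list and 32 in the oxLDL KO list, with 4.13 and 7.47. The latter was the highest oxLDL KO value among the recurring peaks, at a summit 589 bp from the untreated one. Acsl3, a long-chain acyl-CoA synthetase gene, had 3.79 and 4.88, and Lpgat1 had 3.72 and 5.20. Atp11b, a phospholipid flippase gene, had 3.92 and 5.43 at its start. Rhog, which encodes a small GTPase of phagocytosis, had 3.99 and 3.50 at its start, and Pstpip1, a cytoskeletal adaptor gene of myeloid cells, had 3.79 and 5.20 inside the gene. Fold enrichments of different lists are set side by side here and do not measure a change.

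The remaining recurring peaks among the 30 highest lay in or near genes of many functions. Inside genes they were at Armc7 (4.75 in the untreated KO list), Mkrn1 (4.19), Ralgds (4.13), Tbc1d5 (3.92) and Lingo2 (3.77). At gene ends they were at Wwp1 (4.75), Ppp1r9b (4.40), the shared start of Plagl2 and Pofut1 (4.26), Fnip1 (4.21), Stradb and Trak2 (3.99), Ttyh2 (3.99) and Ino80d (3.72). Farther out they lay near Fchsd2 (4.54), Prss56 (4.34), Nenf (3.92) and Mycn (3.73). A peak at 128373708 to 128373934 on chromosome 2 (4.75) had no gene end within 100 kb. Ralgds, Lingo2, Ino80d and Nenf were among the 7 recurring peaks outside high background that were not found in oxLDL WT.

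**Figure D2:**
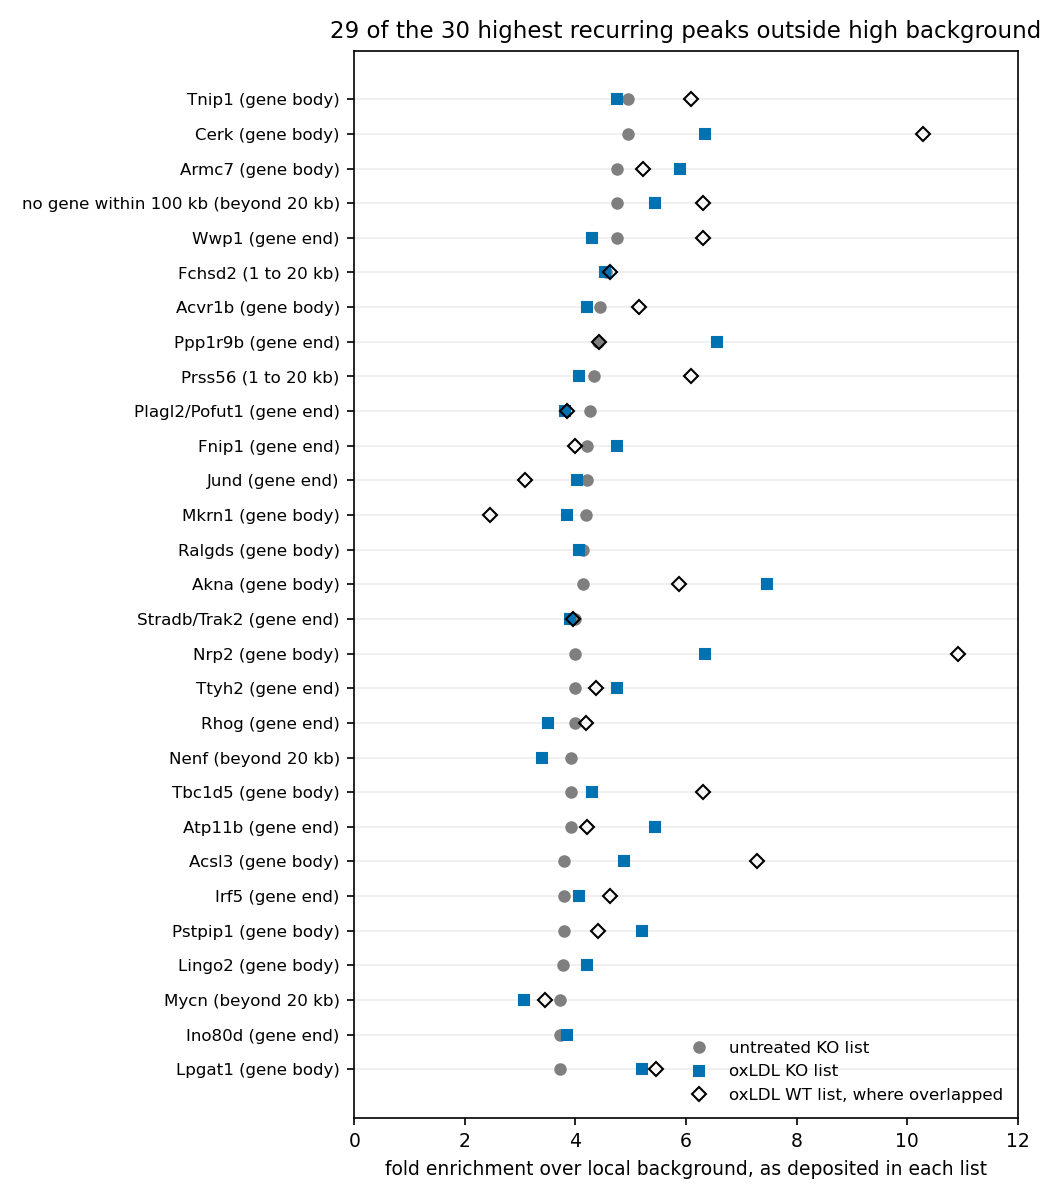
Fold enrichment over local background, as deposited, for 29 of the 30 recurring peaks outside high background with the highest value in the untreated KO list, ordered by that value. Circles are untreated KO, squares oxLDL KO and open diamonds oxLDL WT where that list has an overlapping peak, and values of different lists do not measure a change. Akna reaches 7.47 in oxLDL KO, at a summit 589 bp from the untreated one, and Cerk and Nrp2 exceed 10 in oxLDL WT.

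Of the 18 recurring peaks in high background, 12 were beyond 20 kb from a protein-coding gene, 3 at 1 to 20 kb, 3 inside genes and 0 at a gene end. Their untreated pileups ran from 92 to 27633 fragments, with fold enrichments of only 1.61 to 3.95. The deepest lay on chromosome 2 (98666673 to 98667229), where the local background was 15532 fragments. Others fell in stretches on chromosome 14 near 19415798 and chromosome 17 near 13551845, and 2 inside Sfi1 on chromosome 11. Of these 18, 13 also overlapped an untreated WT peak (72.2%), against 3 of 51 outside high background (5.88%), which were Fnip1, Ptpn22 and Apbb2.

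Untreated KO peaks without an oxLDL KO counterpart were as high in their list as those that recurred. Outside high background these 40 peaks had a median fold enrichment of 3.92, against 3.79 for the 51 that recurred. Their leading peak (5.03, chromosome 2, 6256627 to 6256907) lay 43.8 kb from Echdc3. It was followed by peaks inside Ptk2b (4.75), the gene of the focal adhesion kinase PYK2, and inside Kctd13 (4.75), then one near Gm2974 (4.59). The start of the kinase gene Lmtk2 came next (4.54), then Neurl1a (4.50), inside the gene. Capn2, a calpain protease gene, the shared start of Clk4 and BC049762, the start of the integrin gene Itga5, and Ppp1r18 each had 4.34. In high background there were 2 such peaks, near Gm17019 (2.08) and Gm40035 (1.30).

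Some of these peaks had an oxLDL KO peak nearby that did not overlap them. The distance to the nearest oxLDL KO summit was at most 2 kb for 11 of 40, and its median was 64138 bp. Of 28 genes with an untreated-only peak at an end or inside (0.128% of all genes), 10 held an oxLDL KO peak elsewhere (35.7%). For comparison, 12.9% of all protein-coding genes had an oxLDL-only peak at an end or inside and no untreated one. The 10 were Capn2, Cux1, Eif2ak3, Il21r, Itga5, Map3k3, Plekho1, Ppp1r18, Ptk2b and St3gal5. At Itga5 the 2 summits were 496 bp apart, and at St3gal5, a ganglioside synthase gene, 253 bp. By contrast Tnfrsf11a, the gene of the RANK receptor, had 2 untreated-only peaks (3.92 and 3.58) and no oxLDL KO summit within 199412 bp. Tnfrsf11a and St3gal5 were chosen after their values had been seen.

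Recurring peaks and untreated-only peaks differed in how often oxLDL WT cells had a peak at the same place. Outside high background, oxLDL WT peaks overlapped 44 of the 51 recurring peaks (86.3%, interval 74.3 to 93.2) and 18 of the 40 untreated-only peaks (45.0%, interval 30.7 to 60.2). The intervals cover counting error over peaks only, with 1 library per group, and the difference was not tested. The oxLDL WT library was not used to sort the peaks, but recurring peaks were those called in oxLDL KO, a list that shares its treatment. Overlap with untreated WT peaks was 3 of 51 and 3 of 40.

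Peaks found only with oxLDL in KO cells numbered 4570, or 98.5% of the oxLDL KO list. In WT cells, 9728 of 9879 oxLDL peaks had no untreated counterpart, also 98.5%. Outside high background there were 4534 in KO cells, with fold enrichments from 2.10 to 11.3.

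Outside high background the position classes of oxLDL-only peaks lay within the intervals of those that recurred. Of the 4534, 39.4% lay at gene ends (interval 38.0 to 40.8), 38.1% inside genes, 11.6% at 1 to 20 kb and 10.9% beyond 20 kb. For the 51 recurring peaks these shares were 37.3% (interval 25.3 to 51.0), 35.3%, 11.8% and 15.7%, and for the 40 untreated-only peaks 27.5% (interval 16.1 to 42.8), 40%, 7.5% and 25%. Gene ends make up 3.1% of the autosomes from 3 Mb to the last gene end, and stretches beyond 20 kb from a gene 43.8%. With high-background peaks counted, 27.5% of recurring peaks lay at gene ends and 29.0% beyond 20 kb (interval 19.6 to 40.6), against 39.1% and 11.1% (interval 10.2 to 12) of oxLDL-only peaks. With only peaks at a −log10 q of 5 or more in both lists, the gene-end shares were 5% of 20 recurring and 38.4% of 873 oxLDL-only peaks. Of those 20, 13 were high-background peaks, against 29 of the 893 oxLDL KO peaks left. A summit within 1 kb of both a start and a finish was counted at the start, which favours starts. The finish was counted only where no start and no end of unknown strand was that near. Where the strand of the gene was known, 1426 of 1473 oxLDL-only gene-end summits lay at the start of the gene (96.8%) and 47 at the finish. The same held for 11 of 12 recurring and 10 of 10 untreated-only summits.

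**Figure D3:**
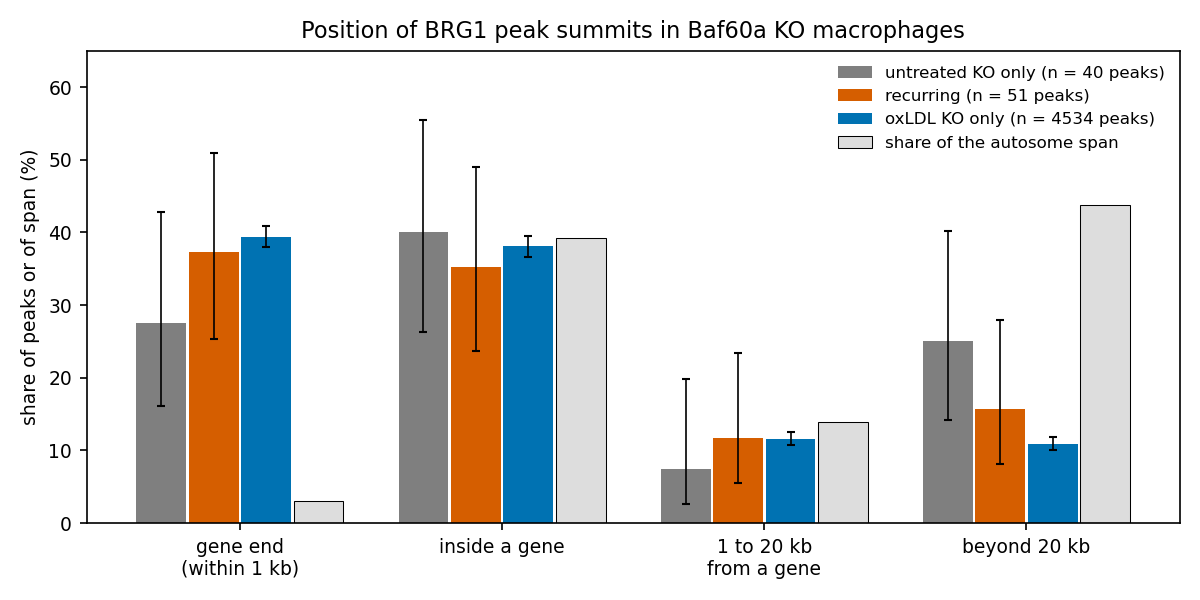
Share of peak summits, in percent, at gene ends, inside genes, at 1 to 20 kb from a gene and beyond 20 kb, outside high background, with Wilson 95% intervals (counting error only), beside the share of the autosome span in each class. Gene ends hold 27.5% to 39.4% of summits but 3.1% of the span.

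Around start sites the summits sat past the start rather than on it. Of the oxLDL-only summits, 1713 lay within 1 kb of an annotated RefSeq start, and 1417 of these were downstream (82.7%, interval 80.9 to 84.4). Their median position was 271 bp past the start, with quartiles at 142 and 406 bp. The stretch from 200 to 600 bp past the start held 898 of them (52.4%), and the 100 bp on either side of the start 93 (5.43%). Recurring peaks were placed alike: 13 of 16 oxLDL KO summits lay downstream, at a median of 316.5 bp. The 3 upstream were at Ptpn22, Pofut1 and Mkrn1.

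**Figure D4:**
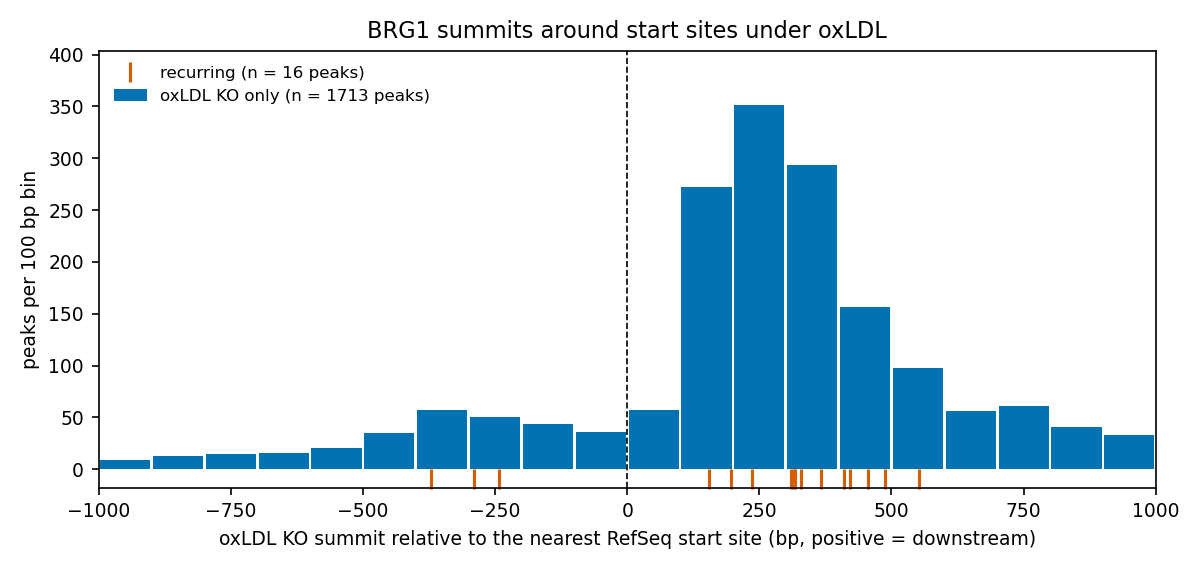
Number of oxLDL-only KO summits per 100 bp bin (bars, n = 1713) by their distance in bp from the nearest RefSeq start, with positive values downstream, and the 16 recurring peaks as ticks at their oxLDL KO summits. The bars peak between 100 and 400 bp past the start and are low in the 100 bp on either side of it.

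Promoter windows under oxLDL-only peaks were richer in G and C than other promoters. The 571 windows overlapped by such a peak had a median GC content of 69.3%, against 56.3% over all 21263. A GC content of at least 60% was found in 84.2% of them and in 39.2% of all windows, and the ratio of observed to expected CG pairs had medians of 0.853 and 0.567. The 11 windows overlapped by untreated KO peaks had a median GC content of 71.3%. Motifs were searched on both strands. GGGCGG was in 75.5% of the 571 windows and in 46.2% of all, but among windows of at least 60% GC the shares were 84.2% and 82.0%. CCAAT was in 23.5% against 38.2%, and in 21.2% against 32.5% at 60% GC or more. GGAAGTGA, a form of the ETS motif that PU.1 also binds, was in 5.78% against 3.86%, and TGANTCA, the AP-1 motif, in 4.20% against 6.99%. At 60% GC or more these were 6.03% against 3.93% for ETS and 3.53% against 3.42% for AP-1. TGACGTCA (CREB and ATF), TCACGTGA (MiT and TFE) and the palindromic NRF1 motif were in 2.28%, 1.23% and 1.05% of the 571 windows, against 2.23%, 1.23% and 1.33% of all. At 60% GC or more these were 2.49%, 1.46% and 1.25%, against 3.06%, 1.79% and 2.15%. The former rest on only 12, 7 and 6 windows.

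Of the 20 highest oxLDL-only peaks, 4 lay at gene ends and the others inside genes or between them. The leading one (fold enrichment 11.3, chromosome 16, 91522374 to 91523032) lay 12 kb from Ifnar1, the gene of an interferon receptor chain, and 24.6 kb before the start of Ifngr2, a chain of the interferon-gamma receptor. Ifngr2 had a peak of its own at its start, at 6.37. The second (11, chromosome 2, 157447286 to 157447957) lay inside the tyrosine kinase gene Src. The third (10.2, chromosome 2, 180273739 to 180274211) lay at the start of Cables2, and another with the same value 18.4 kb from Fam187b. Inside genes there followed Nod1 (8.47), a receptor for bacterial peptidoglycan, Elovl7 (7.92), a fatty acid elongase, Lcp1 (7.92), the leukocyte actin bundler L-plastin, Rab31 (7.69) and Raet1e (7.61), a ligand of an NK cell receptor. A peak 26746 bp from Cebpb, which encodes a C/EBP factor of myeloid cells, had 8.15.

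The other peaks among the 20 highest had fold enrichments of 7.24 to 7.69. Those at gene ends were at Mocos (7.69), Edil3 (7.47) and Crlf3 (7.24). Those between genes lay near Apobec1 (7.69), an RNA-editing deaminase gene, Hook2 (7.69), Ptchd3 (7.47), Mmp12 (7.47), the macrophage elastase gene, Capn2 (7.24) and Fem1a (7.24). One on chromosome 6 (117431403 to 117431686, 7.69) had no gene end within 100 kb. All 20 overlapped an oxLDL WT peak. So did 59.4% of oxLDL-only peaks outside high background, and 78.9% in the highest of 5 parts by fold enrichment. In the untreated WT list 2.25% of oxLDL-only peaks outside high background had a counterpart. Of the 20 highest, 3 had one, those near Ifnar1 (6.49), at Cables2 (4.86) and near Capn2 (5.68), although they were not found in untreated KO. Capn2 thus had an untreated-only peak inside the gene, and oxLDL-only peaks inside it (4.30), at an end (3.39) and 10.7 kb outside it.

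All of the 10 widest oxLDL-only peaks overlapped oxLDL WT peaks, where 59.1% of all oxLDL-only peaks did. Of the 10, 4 had the summit at a gene start, those at Foxp1, Tet2, Fmnl1 and Itga4. Foxp1, a forkhead transcription factor gene, had the widest, at 1604 bp. It was followed by Tet2 (1537 bp), which encodes a methylcytosine dioxygenase, Fmnl1 (1409 bp), a formin of leukocytes, Ctbp2 (1407 bp), a corepressor, and Itga4 (1376 bp), an integrin. Pld4 (1307 bp), N4bp2 (1262 bp), Gm46294 (1259 bp), Zmiz1 (1250 bp) and Spi1 (1245 bp) completed the 10. Their fold enrichments were ordinary for the list, from 3.32 at Zmiz1 to 5.20 at Tet2.

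Most genes with oxLDL-only peaks had 1. Of 2852 genes with at least 1 at an end or inside, 2217 had 1, 436 had 2 and 199 had 3 or more. The DNA methyltransferase gene Dnmt3a, over 112.885 kb, and Zmiz1, a PIAS-like coactivator gene over 208.869 kb, had 10 each, 0 of them at a gene end. Plec, the gene of the cytolinker plectin, Lrp1, an endocytic lipoprotein receptor, and the homeobox gene Cux1 had 7 each. Sh2b3, which encodes the cytokine signalling adaptor LNK, had 6 over 22.165 kb, or 2.71 per 10 kb, and all 6 overlapped oxLDL WT peaks. Lasp1, Map3k14 (the NF-kB-inducing kinase), Tspan14 and Slc6a6 (the taurine transporter) also had 6 each. In all 11 genes had 6, and those named are the shortest of them. Of the 10 genes named, Cux1 was the 1 with an untreated KO peak, and that peak did not recur.

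An oxLDL-only peak at a gene end, with no untreated KO peak at that gene's ends, was found at 1894 of 21887 protein-coding genes (8.65%). At an end or inside, the count was 2826 genes (12.9%). In WT cells the gene-end count was 3214 (14.7%). The gene lists below are read against these shares. They are short, no set test was run, and at a −log10 q of at least 5 in both lists the background was 365 genes (1.67%) and the 11 pathway lists held 0 to 3 genes each.

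Of 26 macrophage lineage genes, 11 had an oxLDL-only gene-end peak in KO cells (42.3%, interval 25.5 to 61.1), against 21 in WT cells. With gene bodies counted too the list stood at 50%, below the 55.9% of lipid genes, and with only peaks at a −log10 q of 5 or more its gene-end share was 3.85%, against 1.67% of all genes and 8.82% of the inflammatory list. Syk, the kinase of immunoreceptor signalling, led at its start with a fold enrichment of 6.11 and was the 1 gene of the list left at a −log10 q of 5. Tyrobp, encoding the adaptor DAP12, had 4.53, Maf 4.34 and Spi1 4.10. Cebpb and Csf1r, the receptor gene for macrophage colony-stimulating factor, had 3.85 each. Where the strand was known, Syk, Trem2 and Mpeg1 had the peak at the start, and Cebpb, Cd68 and Lyz2 at the finish. Runx1 had 6 peaks inside the gene and 0 at an end.

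Lipid genes had peaks inside the gene about as often as at an end. Of 34, 10 had an oxLDL-only gene-end peak (29.4%, interval 16.8 to 46.2; 16 in WT) and 19 one at an end or inside (55.9%, against 12.9% of all genes). At gene ends Npc1, a lysosomal cholesterol transporter, had 4.98, and Pparg, the nuclear receptor of lipid storage, had 4.24. Acsl1 had 3.76, Scd2 3.61, Plin3 3.4 and Npc2 3.17. The cholesterol exporter gene Abca1 had 2.83 at its start and up to 4.98 inside. Lrp1 had 7 peaks inside, and Abcg1, Lipa, Nr1h3, which encodes the oxysterol receptor LXR-alpha, Plin2 and Fasn had 1 each inside. With both lists at the same lowest −log10 p of 5.33, the gene-end count of the list was 6, against 1636 of all genes (7.47%).

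Of 29 NRF2 and oxidative stress genes, 10 had an oxLDL-only gene-end peak (34.5%, interval 19.9 to 52.7; 16 in WT), among them Sod1 (5.20), Bach1 (4.40), a repressor of antioxidant genes, Osgin1 (4.30), Gclm (3.85), Prdx1 (3.85) and Prdx6 (3.85). Nfe2l2, which encodes NRF2, had 1 inside the gene (4.03). In the unfolded protein and integrated stress list, 5 of 26 genes had one (19.2%, interval 8.51 to 37.9, which includes 8.65%; 13 in WT), and 0 with a −log10 q of 5 or more. They were Ern1 (4.30), the gene of the sensor IRE1, Sel1l (3.85), Eif2ak3 (3.62), Dnajc3 (3.39) and Atf3 (2.94). Eif2ak3, which encodes the sensor PERK, thus had an oxLDL-only peak at its start and an untreated-only peak inside (4.13), 11322 bp from the nearest oxLDL KO summit.

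Of 34 inflammatory cytokine and NF-kB genes, 5 had an oxLDL-only gene-end peak (14.7%, interval 6.45 to 30.1), and of 29 interferon genes 4 did (13.8%, interval 5.50 to 30.6). Both intervals include the 8.65% of all genes. With only peaks at a −log10 q of 5 or more, the inflammatory list held 3 genes (8.82%), the highest share of the 11 pathway lists, where all genes had 1.67%. In WT cells the counts were 14 and 12, against a background of 14.7%. The inflammatory genes were Nfkb1 (5.52), Myd88 (5.20), Nlrp3 (5.20), Tnfaip2 (4.29) and Nfkbia (3.62). The interferon genes were Ifngr2 (6.37), Ifnar2 (4.22), Tap1 (3.85) and Psmb9 (3.85), of which Tap1 and Psmb9 share 1 peak.

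Of 26 AP-1 and immediate early genes, 8 had an oxLDL-only gene-end peak (30.8%, interval 16.5 to 50; 15 in WT), led by Klf2 (5.43), Fosl2 (4.58), Junb (4.30) and Ier5 (4.07), followed by Zfp36 (4.03) and Ier2 (3.97). With gene ends taken within 500 bp the count was 4, where that of all genes was 1331 (6.08%). Of 35 lysosome and autophagy genes, 10 had one (28.6%, interval 16.3 to 45.1; 19 in WT), led by Uvrag (4.75), Ctsb (4.10), Gabarapl1 (4.07), Rragd (3.62), Atp6v1h (3.53) and Ctsd (3.4). Tfeb, a master regulator of lysosomal genes, had 4 peaks inside the gene, up to 5.42, and 0 at an end.

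Mitochondrial, SWI/SNF and cell cycle genes had counts close to those in WT cells, where the share over all genes was 14.7%, against 8.65% in KO cells. Differences between genotypes were not tested for any list. Of 32 mitochondrial biogenesis genes, 6 had an oxLDL-only gene-end peak (18.8%, interval 8.89 to 35.3; 7 in WT). Tfb2m, a mitochondrial transcription factor, had 7.01 and the nuclear receptor gene Esrra 6.34, the highest values in any of the lists along with Ifngr2. The peak of 7.01 is shared with Cnst, which also has an end within 1 kb of its summit. Tomm70a (4.53), Pink1 (4.30), Polg2 (4.07) and Nrf1 (3.82) followed. Of 28 SWI/SNF subunit genes, 8 had one (28.6%, interval 15.3 to 47.1; 9 in WT): Arid2 (4.74), Brd7 (4.17), Dpf2 (3.85), Bcl7a (3.85), Bicra (3.39), Phf10 (3.17), Smarcd2 (3.16) and Smarce1 (2.93). Smarcd2 encodes BAF60b, a paralogue of the deleted subunit, and its peak was also found in oxLDL WT. Within 500 bp of a gene end the SWI/SNF count was 5, again against 6.08% of all genes. Of 34 cell cycle and replication genes, 9 had one (26.5%, interval 14.6 to 43.1; 11 in WT), led by Cdkn2d (4.75), Cdt1 (4.75), Mki67 (3.85), Cdk4 (3.62), Rb1 (3.61) and Cdk6 (3.61).

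Genes that mark other cell types had almost none. Over the 6 lists of hepatocyte, neuron, lymphocyte, neutrophil, erythroid and megakaryocyte, and stromal genes, 1 of 120 had an oxLDL-only gene-end peak (0.833%, interval 0.147 to 4.57), against 8.65% of all genes. It was Tal1 (4.88), a blood stem cell and erythroid factor. None of the 120 had an untreated KO peak. Over all genes, only 0.187% had a recurring and 0.128% an untreated-only KO peak at an end or inside, so nothing is read from that. In the untreated KO list, Spi1 was the 1 gene of the 26 in the macrophage list with a peak, so that list alone shows little about the cell type.

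**Figure D5:**
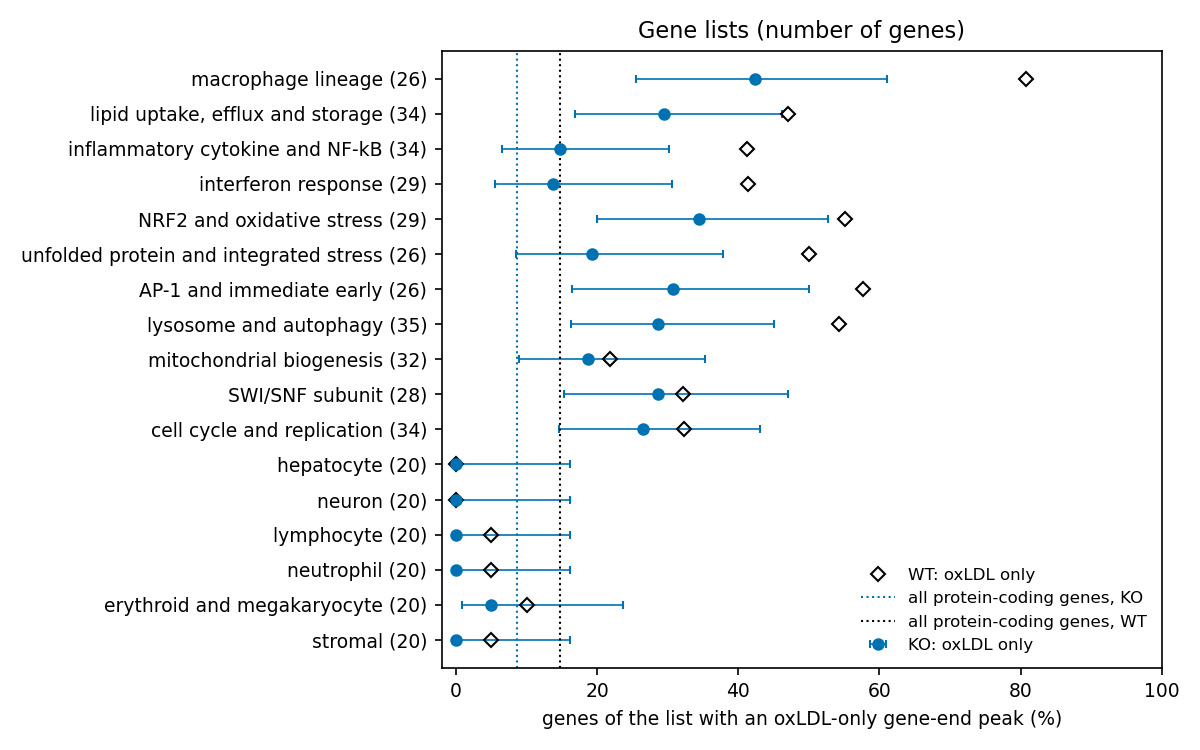
Percent of the genes of each list with an oxLDL-only gene-end peak in KO cells (filled, with Wilson 95% intervals) and in WT cells (open diamonds), with the number of genes in brackets and dotted lines at the shares of all protein-coding genes, 8.65% in KO and 14.7% in WT. With all peaks counted at gene ends, as plotted, the macrophage list stands highest in both, and the 6 lists of other cell types lie at 0 to 5% in KO.

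Between genes, some oxLDL-only peaks shared a nearest gene. Outside high background 1021 such peaks lay outside protein-coding genes, and 847 of them had a gene end within 100 kb, at a median of 18.7 kb, belonging to 665 genes. Of these genes 261 (39.2%) also held a peak of their own. Over all protein-coding genes, 12.9% had an oxLDL-only peak at an end or inside and no untreated one. Of the 665 genes, 31 had at least 3 peaks nearby. Those below had the most, or were chosen after their values had been seen. Tomm20 had 9, Zfp36l2, an mRNA decay factor gene, had 7, and Cebpb and Dusp1, the MAP kinase phosphatase gene, had 5 each. The 5 near Cebpb lay 26.1 to 86.7 kb away, and the 5 near Dusp1 4.48 to 26.0 kb. Id2, Ier5 and Plekho2 had 4 each, and Klf6, Actb and Ifnar1 had 3 each. A peak is named by the nearest gene, which does not show that it acts on that gene. Ends of lncRNA genes held 77 of the 1021 (7.54%), and another 168 (16.5%) lay inside one. The part of the intergenic span that lncRNA genes take up is not given beside these shares, so nothing is read from them.

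Some oxLDL-only peaks lay near microRNA genes. Of 1005 microRNA hairpins, 37 lay within 2 kb of an oxLDL-only summit (3.68%), where 2236 protein-coding genes (10.2%) had an end that near to one. None lay within 2 kb of an untreated KO summit, and since that list is much shorter nothing is read from the 0. Mature sequences of 3, chosen after the values had been seen, are printed from RefSeq on GRCm38.p6 with the seed in capitals, since 2 of them share it.
mmu-let-7i-5p: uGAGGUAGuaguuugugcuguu
mmu-miR-212-3p: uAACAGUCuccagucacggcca
mmu-miR-132-3p: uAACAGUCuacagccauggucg
The hairpin of let-7i (chromosome 10, 122985640 to 122985724) lay 8 bp from a summit of fold enrichment 3.79, which was also found in oxLDL WT. Those of miR-212 and miR-132, which share the seed AACAGUC, lie next to each other on chromosome 11. One peak of 3.16 had its summit inside the miR-212 hairpin (75173388 to 75173478) and 249 bp from that of miR-132 (75173682 to 75173747). It had no oxLDL WT counterpart. A peak list does not show whether either RNA was made.

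Finally, oxLDL-only peaks of KO cells were set beside the oxLDL WT list. Outside high background 2692 of the 4534 overlapped an oxLDL WT peak (59.4%, interval 57.9 to 60.8), and 102 an untreated WT peak (2.25%). The share rose with fold enrichment in the oxLDL KO list. It was 43.0%, 51.3%, 57.6%, 63.6% and 78.9% over 5 parts from lowest to highest, while the gene-end share stayed between 38.2% and 40.4%. The 1842 peaks without an oxLDL WT counterpart were lower, with a median fold enrichment of 3.62 against 4.07, and narrower, with 284 against 335 bp. They lay beyond 20 kb from a gene more often, 15.3% (interval 13.7 to 17.0) against 7.84% (6.88 to 8.91), and at gene ends less often, 35.4% (33.2 to 37.6) against 42.1% (40.3 to 44.0).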

How the data were processed

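Per the labels' protocols, macrophage chromatin was cut with the enzymatic SimpleChIP kit, precipitated with an Abcam BRG1 antibody and sequenced in paired ends on a NovaSeq. Tools named without parameters in the submitters' processing notes are MACS3, Bowtie2, Trimmomatic 0.33 and bcl2fastq 2.17, with the build mm10. Not given in the sources used here is whether the input served as control. Peaks were called per library, since each library has its own list. Each deposited peak has a score, 10 times the −log10 q in whole numbers for all but a few peaks, a fold enrichment, a ratio over local background, −log10 p and −log10 q values, and a summit as an offset in bp. Pileup and background were recovered from fold enrichment, taken as (pileup + 1)/(background + 1), and the Poisson p-value, and the pileup came out whole, within 2% of a step, for 96.4% of untreated KO and 99.9% of oxLDL KO peaks. Read totals are not given.

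Groups were taken from the sample titles. Peaks on chromosome 9 starting before 3.1 Mb were dropped (28 and 29), and overlap meant at least 1 bp. Genes came from RefSeq on GRCm38.p6, with 21887 protein-coding genes, of which 17492 had a strand and start sites. A gene body holds exons and introns. A peak takes the name of a gene with an end 1 kb or less from the summit, failing that of the gene around it, and failing both of the closest gene end up to 100 kb away. The text names the 30 highest recurring, 10 untreated-only and 20 oxLDL-only peaks by fold enrichment, the 10 widest, the 10 genes with the most peaks (ties by the shorter gene), and up to 6 genes per list, except a few that are not reported here. Members, lists and this rule were chosen with earlier results of these data known. Overlap and recovery were tested on simulated data. Alternatives were the overlap rule, p and q limits, high-background peaks, the chromosome 9 stretch and the reach of a gene end. Python 3.11.15, pandas 2.3.3, numpy 2.4.6 and scipy 1.17.1 were used.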

Additional observations from a re-analysis of the deposited data

How the results depend on the processing

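Of 44 values recomputed for 6 main results (the counts of recurring and oxLDL-only peaks, 3 position shares and the genes with an oxLDL-only gene-end peak), 36 stayed within 1.5 times the count or within the interval of the share. With both lists at a −log10 q of at least 5, 20 untreated peaks recurred of 27 left, 13 of the 20 in high background, and their gene-end share was 5%, while 873 peaks of 893 were oxLDL-only and 365 genes had an oxLDL-only gene-end peak. With gene ends taken within 500 bp, 27.7% of oxLDL-only peaks lay at gene ends and 48.1% inside genes, and within 2 kb 47.7% and 30.9%. The other settings moved none of the 6: overlap of at least 50% of the shorter peak, peaks within 500 bp of each other, a common −log10 p limit of 5.33 (66 recurring and 3906 oxLDL-only), the chromosome 9 stretch kept, and high-background peaks left out. No paired analysis was possible because each group has 1 library, and no library could be left out. A median peak rests on 17 to 20 fragments, so peaks near the caller's limit can be missed in either list.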
